A study of Mus musculus with 12 samples.

Results

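Casp1, Casp4, Casp6, Casp8, Casp9, Gsdmd, Il18 and Xiap were followed in the duodenum and the liver of mice under chronic corticosterone. They are all 8 genes selected by symbol, of 55416 genes in each expression table. Male C57BL6/J mice, 8 weeks old at the start, received corticosterone (CORT, the main glucocorticoid of rodents) at 40 mg/kg or vehicle (Veh) by subcutaneous injection every day for 8 weeks. RNA-seq libraries were made from 50 mg of tissue per sample, 3 for CORT and 3 for Veh in each tissue, which makes 12. All groups share the strain and the sex. The labels call the gut tissue intestine, and the methods of the study name it duodenum. The replicates are labelled as biological, but whether the liver and intestine samples with the same number came from one mouse is not stated. P-values measure the spread between these samples only.

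Casp1 is the protease that inflammasomes activate. It cuts pro-IL-18, encoded by Il18, and gasdermin D, encoded by Gsdmd, whose amino-terminal fragment opens pores in the plasma membrane and kills the cell by pyroptosis. Casp4, also called caspase-11 in mice, cuts gasdermin D when it meets cytosolic lipopolysaccharide. Casp8 starts apoptosis below death receptors, Casp9 starts it on the apoptosome after release of cytochrome c, Casp6 is an effector caspase, and Xiap is an inhibitor that binds Casp9 and certain effector caspases. In the gut, these genes act in an epithelium that is renewed continuously and faces bacteria. All these proteases are made as inactive precursors, so a transcript level is not a measure of their activity.

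Transcript levels were given as TPM (relative transcript abundance), which is corrected for transcript length and scaled to a fixed total in each library. The TPM values of the libraries summed to between 983327 and 997319, and between 17897 and 20446 genes were above 0 per library. TPM does not keep the read number, so no counting error can be given. Differences were tested on log2(TPM + 1) with limma over every gene that averaged 1 TPM or more in one of the groups, and a gene was called at a Benjamini-Hochberg adjusted p up to 0.05 with a fold change above 1.5. For 3 samples against 3, an exact permutation test of a single gene cannot give a two-sided p below 0.1.

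The regions just before the start sites of 3 of the genes are shown because Casp1 and Casp8 were the genes of the 8 whose intestinal CORT and Veh levels did not overlap, and because those of Casp1 and Il18 hold a half-site of the glucocorticoid receptor. The sequences are the 250 bases upstream of the annotated start in RefSeq on GRCm38.p6, an older build than the GRCm39 named in the submitters' processing notes. Capitals mark that half-site, TGTTCT, or AGAACA where it lies on the other strand. Each is on the plus strand, 5′ to 3′: Casp1 at chr9:5298267-5298516, Casp8 at chr1:58802252-58802501 and Il18 at chr9:50554450-50554699.
Casp1: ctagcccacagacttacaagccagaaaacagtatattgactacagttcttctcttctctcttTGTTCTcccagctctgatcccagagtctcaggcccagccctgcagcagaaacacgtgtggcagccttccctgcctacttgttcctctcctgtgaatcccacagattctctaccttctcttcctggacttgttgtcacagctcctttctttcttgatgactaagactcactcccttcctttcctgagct
Casp8: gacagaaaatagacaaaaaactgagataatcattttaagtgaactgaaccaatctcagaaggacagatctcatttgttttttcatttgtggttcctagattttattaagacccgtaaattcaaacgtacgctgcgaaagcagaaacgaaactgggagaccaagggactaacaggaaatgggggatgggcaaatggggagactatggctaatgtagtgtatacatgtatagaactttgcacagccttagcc
Il18: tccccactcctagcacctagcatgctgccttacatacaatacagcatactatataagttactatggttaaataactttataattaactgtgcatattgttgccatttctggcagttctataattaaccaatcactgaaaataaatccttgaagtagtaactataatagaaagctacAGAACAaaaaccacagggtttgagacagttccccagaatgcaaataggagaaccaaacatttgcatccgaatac

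The half-site began 188 bases before the start of Casp1 and 74 bases before that of Il18. A promoter was found for 7 of the 8 genes, all except Gsdmd. Casp1, Il18 and 2 of the 3 annotated starts of Xiap held the half-site, while Casp4, Casp6, Casp8 and Casp9 did not. Searched in the same way on both strands, 16.08% of 32851 promoters of this length held it. The full palindrome is AGAACA and then TGTTCT after 3 bases of any kind, and it contains the half-site. It was in none of the promoters found for these 7 genes and in 0.00913% of all. The core of the interferon-stimulated response element, GAAA and again GAAA after 2 bases of any kind, was likewise absent from them and present in 2.98% of all. A match is a run of letters and not a measured binding site.

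By mean TPM as deposited, Casp1, Il18, Gsdmd and Casp6 of the vehicle-treated mice were each over 10 times higher in intestine than in liver. The Xiap ranges of the tissues overlapped on the TPM scale. Levels in the Veh intestine were highest for Gsdmd (243 ± 43.5 TPM, SD, n = 3), Casp6 (194 ± 30.2) and Il18 (163 ± 32.0), whose ranges overlapped from one to the next. Casp1 (71.5 ± 12.8) and Casp8 (54.1 ± 1.55) came next, each with a range apart from its neighbours. Xiap, Casp9 and Casp4 were lower, with means of 12.9, 10.1 and 6.32 TPM, and the ranges of Casp9 and Casp4 overlapped. In the Veh liver, Gsdmd (20.3 ± 0.36 TPM), Casp6 (17.2 ± 3.71) and Xiap (15.3 ± 3.75) had overlapping ranges at the top, followed by Casp8 at 10.6, Il18 at 7.48 and Casp9 at 6.08 TPM. Casp4 and Casp1 stood at the bottom with means of 0.70 and 0.637 TPM.

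**Figure D1:**
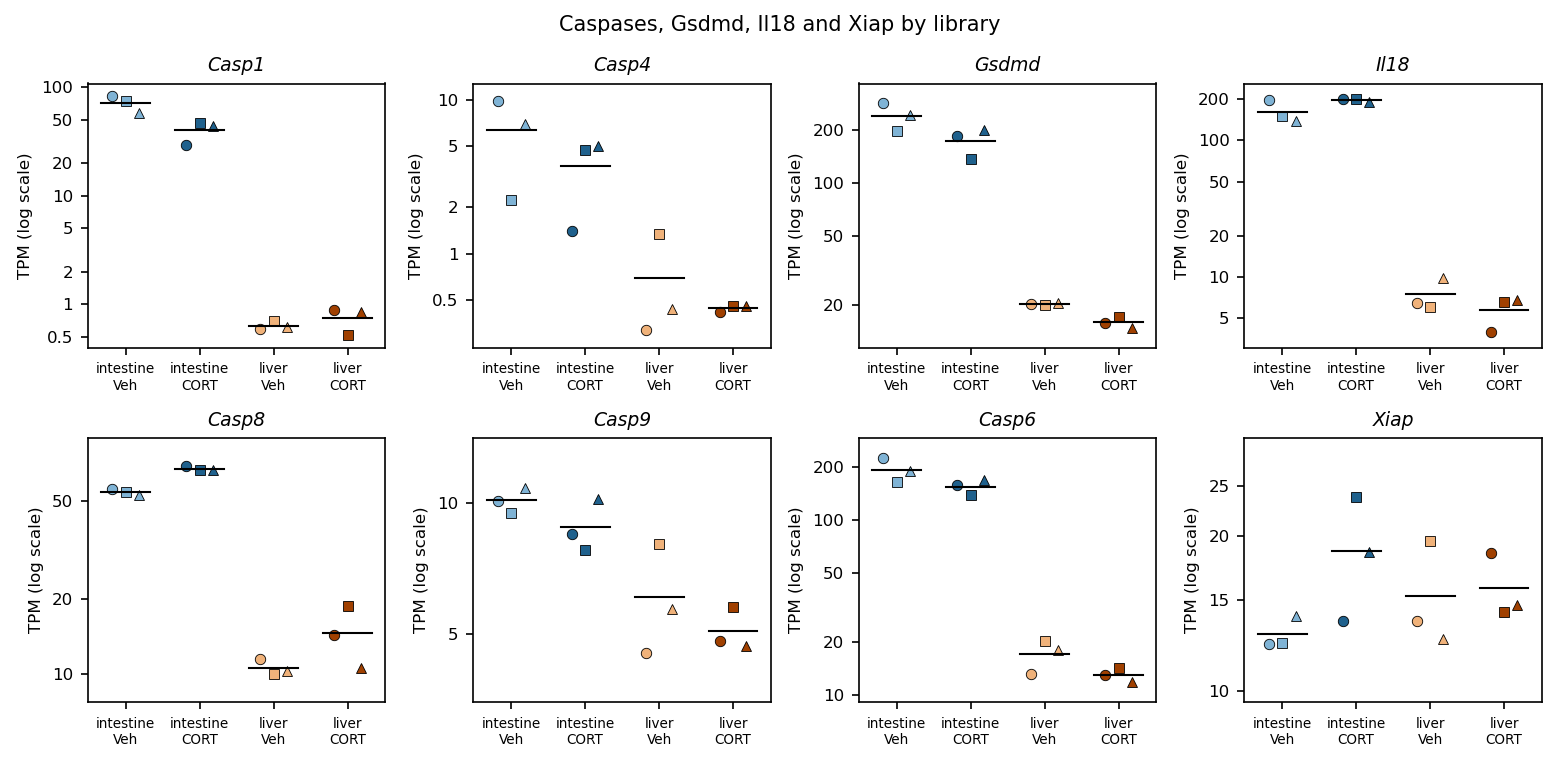
TPM of each gene in every library, on log axes whose range differs between genes. Circles, squares and triangles are replicates 1, 2 and 3, and lines are group means (n = 3). Casp1 lies between 29.05 and 82.92 TPM in the intestine and between 0.52 and 0.88 TPM in the liver, whereas the Xiap groups overlap.

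Casp1 showed the largest tissue difference of the 8. Its 3 Veh intestine libraries had 82.92, 73.87 and 57.62 TPM, against 0.59, 0.70 and 0.62 TPM in the Veh liver, a ratio of means of 112. On the log2(TPM + 1) scale Casp1 was lower in liver by a difference of -5.45 ± 0.16 (SE, adjusted p = 2.4e-07). This scale understates the difference of a gene so low in one tissue. Il18, the cytokine that Casp1 matures, had 198.63, 151.52 and 137.45 TPM in intestine and 6.52, 6.08 and 9.84 TPM in liver (ratio 21.7, log2 difference -4.28 ± 0.21, adjusted p = 3.3e-06). Gsdmd, the pore-forming substrate, had 285.94, 199.02 and 244.23 TPM against 20.32, 19.91 and 20.63 TPM (ratio 11.98, log2 difference -3.50 ± 0.15, adjusted p = 1.5e-06). The intestine and liver values of these genes were far apart in every library.

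Among the apoptotic caspases, the effector Casp6 had the largest difference, with 225.45, 165.40 and 190.25 TPM in intestine and 13.19, 20.48 and 18.02 TPM in liver (ratio 11.2, log2 difference -3.43 ± 0.19, adjusted p = 5.9e-06). The death receptor caspase Casp8 had 55.68, 54.07 and 52.58 TPM against 11.49, 9.99 and 10.28 TPM (ratio 5.11, log2 difference -2.25 ± 0.11, adjusted p = 3.1e-06). Casp9, of the apoptosome, had 10.08, 9.45 and 10.84 TPM against 4.52, 8.02 and 5.71 TPM (ratio 1.66, log2 difference -0.68 ± 0.19, adjusted p = 0.016). The size of the tissue difference thus fell from the effector to the initiators, but the genes were not tested against each other.

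Casp4 had the widest relative spread of the 8 in both Veh groups, with an SD of 60.3% of the mean in intestine and 79.6% in liver. Its Veh values were 9.77, 2.23 and 6.96 TPM in intestine and 0.32, 1.34 and 0.44 TPM in liver, a ratio of means of 9.03 with a log2 difference of -1.99 ± 0.46 (adjusted p = 0.0064). Xiap ran between 12.36 and 14.01 TPM in intestine and between 12.61 and 19.58 TPM in liver, and its groups overlapped (log2 difference 0.20 ± 0.18, adjusted p = 0.33).

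In all, 7 of the 8 genes were called lower in liver, and the same 7 had groups that did not overlap. These counts stand against a background in which 53.0% of the 14134 genes tested were called lower in liver and 60.4% were lower without overlap. Casp1 and Casp4, with means of 0.637 and 0.70 TPM in the Veh liver, passed the filter on level through the intestine alone. That filter set their direction. The median difference of the 8 was -2.84, against -0.72 over all genes tested. The tissues were deposited as separate tables, each library scaled on its own, and the 10 highest genes took between 24.1% and 27.8% of all TPM in liver libraries and between 14.2% and 19.8% in intestine libraries. When libraries were scaled by the median of gene ratios, the median of all genes moved to -0.02. Casp9 then had a difference of 0.05 (adjusted p = 0.77), with its direction turned. Xiap had a difference of 0.97 (adjusted p = 3.8e-04) and was called higher in liver. The other 6 genes kept their calls, from -1.47 for Casp8 to -4.87 for Casp1. Gsdmd at -2.70 and Casp6 at -2.63 were then under 10-fold. Casp9 also lost its call without the Veh intestine replicate 3 (-0.63, adjusted p = 0.057) or the Veh liver replicate 1 (-0.51, a fold under the limit). In tissue pieces, fewer cells that express a gene and less of its RNA per cell cannot be told apart.

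**Figure D2:**
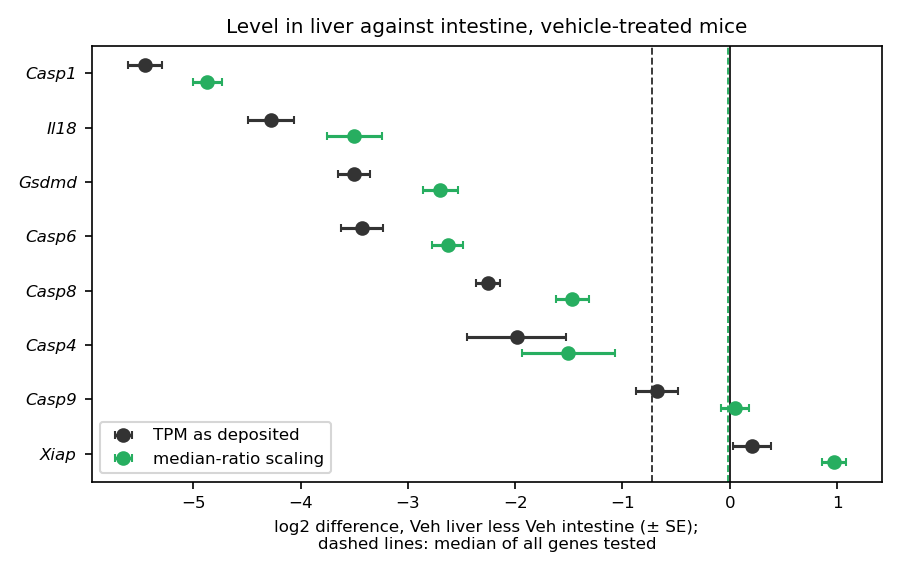
Difference of the Veh liver from the Veh intestine on the log2 scale for each gene (± SE, 3 libraries per tissue), with TPM as deposited and after median-ratio scaling. Dashed lines mark the median of all genes tested, which moves from -0.72 to -0.02. Casp1 and Il18 lie furthest below 0 under both, and Casp9 and Xiap change their place against 0 or the threshold.

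The labelled tissues carried their own markers. The summed level of 8 hepatocyte genes was between 58008 and 89479 TPM in liver libraries and between 218 and 259 TPM in intestine libraries. In intestine, Cps1 made up most of that sum, with means of 216 TPM in Veh and 221 TPM in CORT. Alb had means of 0.32 and 0.22 TPM there. The summed level of 8 enterocyte genes in liver was between 120 and 224 TPM in Veh and between 582 and 3924 TPM with CORT. Most of it came from Apoa4, an apolipoprotein gene, with means of 122 and 2362 TPM, while the brush border gene Alpi was listed at 0 in every liver library. The glucocorticoid target Fkbp5 rose with CORT by 4.30 ± 0.34 in intestine (adjusted p = 0.0045) and by 4.23 ± 0.32 in liver (adjusted p = 0.0018) on the log2 scale. A second target, Tsc22d3, was called in intestine (2.01 ± 0.25, adjusted p = 0.018), a call lost without Veh replicate 2 or CORT replicate 1 or 2 (1.89 to 1.91), but not in liver (1.92 ± 0.49, adjusted p = 0.062), where it passed without Veh replicate 3 (2.41, adjusted p = 0.039). Under the alternative settings of processing, Tsc22d3 kept its status in 5 of 7 in intestine and in 4 of 6 in liver. In intestine, 25 pancreatic acinar genes took 4.17% and 3.31% of all TPM in Veh replicates 2 and 3 but 0.029% in Veh replicate 1 and between 0.0334% and 0.0562% in the CORT libraries. The acinar list removed for a further fit held 26 genes, those 25 and Zg16, with means of 5469 TPM in Veh and 6067 TPM in CORT intestine. Its removal left the 8 genes' directions in the intestine as they were, with 0 called.

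In the intestine, none of the 8 genes passed limma's test for a change with CORT, and 3 of them (Casp1, Casp8 and Gsdmd) had an unadjusted p under 0.05, as 19.2% of all genes tested did. The calls among all genes were also few, at 2.15% of the 13607 tested. By value, 5 genes were lower and 3 higher, with a median of -0.25 on the log2 scale against -0.01 over all genes. The largest difference was in Casp1, whose Veh values of 82.92, 73.87 and 57.62 TPM stood against 29.05, 47.07 and 43.97 TPM with CORT. Every CORT library lay below every Veh library, and the mean was 0.56 times that of Veh. The log2 difference was -0.83 ± 0.22 (95% interval -1.36 to -0.31), with an unadjusted p of 0.0071 and an adjusted p of 0.11, which missed the threshold. It ran between -0.98 and -0.62 when each library was left out, and with the acinar genes removed it was -0.87 (adjusted p = 0.090).

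Casp8 went the other way by a smaller amount and with little spread. It had 55.68, 54.07 and 52.58 TPM in Veh and 68.75, 66.48 and 66.24 TPM in CORT, again without overlap (log2 difference 0.31 ± 0.11, 95% interval 0.06 to 0.56, adjusted p = 0.18). Of all genes tested, 26.4% had groups that did not overlap, so 2 of 8 is close to that background.

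Gsdmd followed Casp1 in sign, with 285.94, 199.02 and 244.23 TPM in Veh and 184.84, 137.38 and 200.23 TPM in CORT. The highest CORT library passed the lowest Veh library by a narrow margin (log2 difference -0.48 ± 0.20, 95% interval -0.95 to -0.01, adjusted p = 0.25). Il18 did not share that sign. Its 3 CORT libraries lay close together at 200.41, 199.13 and 191.59 TPM, near the highest of the Veh values of 198.63, 151.52 and 137.45 TPM (0.29 ± 0.16, 95% interval -0.08 to 0.67, adjusted p = 0.37). With CORT, Il18 thus had the highest mean of the 8 genes, 197 TPM, and Casp8 at 67.2 TPM stood above Casp1 at 40.03 TPM, the reverse of their order in Veh.

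Casp6 had 157.22, 138.43 and 168.66 TPM with CORT against 225.45, 165.40 and 190.25 TPM in Veh (-0.31 ± 0.16, adjusted p = 0.33), and Casp9 had 8.49, 7.77 and 10.18 TPM against 10.08, 9.45 and 10.84 TPM (-0.19 ± 0.14, adjusted p = 0.50). In both genes the groups overlapped. Xiap, the inhibitor of Casp9, had 13.67, 23.86 and 18.60 TPM with CORT against 12.36, 12.40 and 14.01 TPM in Veh, where the lowest CORT value lay within the Veh range (0.47 ± 0.20, adjusted p = 0.26). Casp4 had 1.41, 4.73 and 4.98 TPM against 9.77, 2.23 and 6.96 TPM (-0.58 ± 0.52, 95% interval -1.82 to 0.66, adjusted p = 0.57). That interval is too wide to set a direction.

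The summed levels of some cell markers stood apart between Veh and CORT intestine. The summed level of 6 B and plasma cell genes was between 828 and 1030 TPM in Veh and between 229 and 542 TPM in CORT, most of it from Jchain, with 0 of the 5 tested called by limma and 2 at an unadjusted p under 0.05. Ms4a1, which marks B cells, was at most 0.24 TPM in Veh. The sum of 8 T cell genes was between 56.7 and 92.7 TPM in Veh and between 58.4 and 73.0 TPM in CORT, and that of 10 macrophage and Kupffer cell genes between 155 and 271 TPM and between 205 and 286 TPM, with 2 of the 8 tested called higher. The sum of 8 enterocyte genes was between 16295 and 21875 TPM in Veh and between 28123 and 31836 TPM in CORT. Limma called 0 of the 8, with 2 at an unadjusted p under 0.05, 5 higher and 3 lower by value (median 0.05). Apoa4 and Fabp2 had means of 9591 and 2757 TPM in Veh and 19837 and 5064 TPM in CORT. Vil1 and Alpi had lower means with CORT. The sum of 5 smooth muscle genes was between 418 and 833 TPM in Veh and between 276 and 446 TPM in CORT, with 0 of 5 called by limma, 3 at an unadjusted p under 0.05 and all 5 lower by value (median -0.65). Their part in the levels of Casp1, Casp8, Gsdmd and the other genes was not tested.

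**Figure D3:**
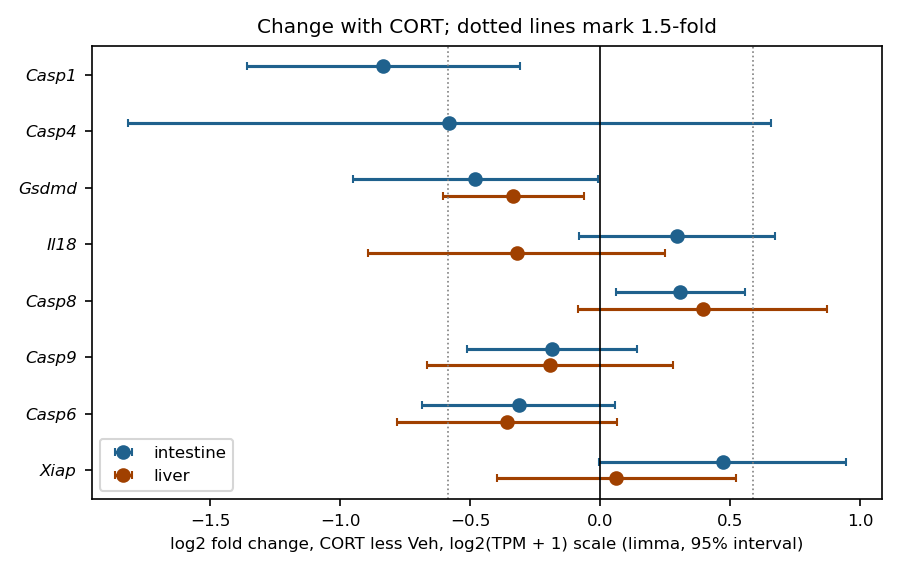
Difference of CORT from Veh on the log2(TPM + 1) scale in intestine and liver, with 95% intervals from limma (3 libraries per group). Dotted lines mark a fold change of 1.5. Only Casp1 in the intestine has a value past the lower line with an interval that leaves out 0, and Casp1 and Casp4 were under the level limit for a test in liver.

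In the liver, 6 of the 8 genes could be tested and none was called by limma, with 1 (Gsdmd) at an unadjusted p under 0.05 (25.9% of all genes tested), against 6.92% of the 11699 genes tested. Their median was -0.26 on the log2 scale, against 0.08 over all genes. Gsdmd was the one gene of the 6 whose groups did not overlap, where 32.2% of all genes tested had such groups. It had 20.32, 19.91 and 20.63 TPM in Veh and 15.75, 17.13 and 14.79 TPM with CORT, a mean 0.783 times that of Veh (-0.34 ± 0.11, 95% interval -0.61 to -0.06, adjusted p = 0.12). The sign was that of the intestine.

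The apoptotic caspases also had the signs seen in the intestine, with wide spread. Casp8 had 14.39, 18.70 and 10.58 TPM with CORT against 11.49, 9.99 and 10.28 TPM in Veh (0.39 ± 0.20, adjusted p = 0.27). Casp6 had 13.00, 14.26 and 11.87 TPM against 13.19, 20.48 and 18.02 TPM (-0.36 ± 0.18, adjusted p = 0.26), and Casp9 had 4.81, 5.75 and 4.69 TPM against 4.52, 8.02 and 5.71 TPM (-0.19 ± 0.20, adjusted p = 0.58). Their CORT and Veh ranges overlapped, and the intervals held both signs.

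Il18 in liver had 3.97, 6.63 and 6.78 TPM with CORT and 6.52, 6.08 and 9.84 TPM in Veh (-0.32 ± 0.24, adjusted p = 0.44). Xiap had 18.55, 14.26 and 14.67 TPM against 13.69, 19.58 and 12.61 TPM (0.06 ± 0.19, adjusted p = 0.87), a difference that turned to -0.03 with median-ratio scaling. Casp1 was between 0.52 and 0.88 TPM with CORT and between 0.59 and 0.70 TPM in Veh, and Casp4 was between 0.42 and 0.46 TPM with CORT and between 0.32 and 1.34 TPM in Veh. At these levels no change of either gene could be read. In liver the sum of the 10 macrophage and Kupffer cell genes, whose cells express Casp1, was between 179 and 216 TPM in Veh and between 161 and 456 TPM with CORT, with 1 called higher, and its part in these values was not tested.

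Whether the change with CORT differed between the tissues was tested in one fit of all 12 libraries. None of the 8 genes was called by limma, with 1 at an unadjusted p under 0.05, where 3.61% of 14806 genes were called and 18.3% had such a p. The nearest was Casp1, with a term of liver less intestine of 0.93 ± 0.27 (95% interval 0.33 to 1.52, adjusted p = 0.093), with the liver libraries all under 1 TPM. Casp1 and Casp4 passed the filter on level through the intestine alone. The Casp1 term therefore largely restates its intestine difference of -0.83 and shows nothing about a change in liver. Il18, with opposite signs in the tissues, had a difference of -0.62 ± 0.30 (adjusted p = 0.31). The other 6 genes had adjusted p-values between 0.51 and 0.99.

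The genes around the 8 in their pathways were followed as 6 lists of 57 genes: inflammasome sensors and adaptor, other gasdermins with the membrane rupture protein, the IL-1 family with its receptors, the apoptosome and death receptor complexes, inhibitors of apoptosis with their antagonists, and caspase substrates of DNA breakdown. In intestine 45 of the 57 could be tested and 1 was called, where 2.15% of all genes tested were, with a median of -0.09 against -0.01 over all genes. In liver 28 could be tested and 4 were called, 2 higher and 2 lower, where 6.92% of all genes tested were, with a median of -0.07 against 0.08. Of 44 tested between the Veh tissues, 32 were called lower in liver and 3 higher, namely Nek7, Ninj1 and Il1r1. Some of those called lower passed the filter on level through the intestine alone, which set their direction. Examples are Nlrc4, Naip1 and Apaf1, with means of 0.11, 0.037 and 0.35 TPM in the Veh liver. Over all genes 53.0% were called lower and 14.4% higher, a split that moved to 3854 genes higher and 4272 lower with median-ratio scaling.

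Among inflammasome genes, the adaptor Pycard, which joins sensors to Casp1, had 258.27, 186.23 and 208.57 TPM in the Veh intestine and 0.16, 2.02 and 1.05 TPM in the Veh liver (log2 difference -6.81 ± 0.34, adjusted p = 3.2e-06). With CORT it had 198.06, 154.76 and 162.95 TPM in intestine, overlapping Veh (-0.33 ± 0.17, adjusted p = 0.34). Casp1, Gsdmd and Pycard thus lay lower by value with CORT in intestine, none past the threshold, while Il18 lay higher. Of the 11 inflammasome sensor and adaptor genes tested there, 7 were lower by value and 4 higher, with a median of -0.10 against -0.01 over all genes.

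The epithelial sensor Nlrp6 fell in liver, from 24.81, 28.71 and 21.80 TPM in Veh to 13.24, 12.03 and 11.74 TPM with CORT (-0.96 ± 0.14, adjusted p = 0.012), and its call held without any single library. In intestine its groups overlapped, at 112.89, 94.93 and 101.05 TPM with CORT and 125.20, 86.96 and 93.00 TPM in Veh (0.03 ± 0.17, adjusted p = 0.94). Nek7, a kinase that binds Nlrp3, rose in liver from 8.25, 10.18 and 8.30 to 17.46, 15.20 and 20.37 TPM (0.91 ± 0.15, adjusted p = 0.020). That call was lost without Veh replicate 1 or 3 or CORT replicate 1 or 3, where the difference lay between 0.81 and 0.92. Nlrp3 itself averaged 0.14 TPM in Veh and 0.18 TPM in CORT liver, too low for a test. In intestine Nlrp9b, a sensor of the gut epithelium, was called higher with CORT, at 2.05, 2.72 and 2.88 TPM against 0.43, 0.67 and 0 TPM (1.40 ± 0.25, adjusted p = 0.044). The call was lost when any of the 6 libraries was left out, with differences between 1.19 and 1.56, and the gene has close paralogs that may share its reads. It passed the filter on low values through the CORT group alone.

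Of the other gasdermins, Gsdmc4 and Gsdmc2 had 1 Veh intestine library far above the rest. Gsdmc4 had 9.56, 200.89 and 2.36 TPM in Veh and 0.44, 1.02 and 0.65 TPM with CORT (-3.51 ± 1.34, adjusted p = 0.22). Gsdmc2 had 3.04, 71.74 and 1.01 TPM in Veh and 0.09, 0.23 and 0.21 TPM with CORT (-2.84 ± 1.21, adjusted p = 0.26). Neither passed the test although the groups did not overlap, and reads of this near-identical family may be split between its members. The membrane rupture gene Ninj1 was higher in liver, with 133.64, 149.52 and 134.95 TPM in the Veh liver and 13.38, 15.19 and 15.92 TPM in the Veh intestine (3.15 ± 0.12, adjusted p = 8.1e-07). Its level was thus opposite in order to that of Gsdmd, which acts before it.

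In the IL-1 family, the receptor Il1r1 rose with CORT in liver, from 10.77, 5.35 and 6.71 TPM to 32.96, 19.07 and 34.01 TPM (1.79 ± 0.30, adjusted p = 0.020). The call was lost without Veh replicate 3 or CORT replicate 1 or 3, with differences between 1.65 and 1.74. In intestine Il1r1 had a difference of 0.03 (adjusted p = 0.97). Il18bp, which binds and blocks IL-18, had 8.05, 7.22 and 6.39 TPM in the Veh liver and 6.45, 8.61 and 20.72 TPM with CORT (0.50 ± 0.37, adjusted p = 0.44). Without CORT replicate 3 the difference was 0.047.

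Around Xiap, its antagonist Xaf1 fell in liver from 8.56, 9.26 and 7.24 TPM to 2.45, 2.26 and 3.82 TPM (-1.30 ± 0.19, adjusted p = 0.013), a call lost without Veh replicate 1 (-1.28, adjusted p = 0.051) or CORT replicate 1 (-1.23, adjusted p = 0.056). In intestine Xaf1 overlapped between groups (0.27 ± 0.34, adjusted p = 0.69). Of the 13 apoptosome and death receptor genes tested in intestine and the 10 in liver, limma called none, with 3 in each tissue at an unadjusted p under 0.05, as 19.2% and 25.9% of all genes tested had in intestine and liver. The receptor Tnfrsf1a, upstream of Casp8, had 0.15 ± 0.15 in intestine (adjusted p = 0.620) and -0.19 ± 0.17 in liver (adjusted p = 0.515). Casp2, an initiator caspase outside the 8, had 14.22, 12.63 and 11.42 TPM in the Veh intestine and 18.72, 23.06 and 16.39 TPM with CORT, without overlap (0.56 ± 0.16, adjusted p = 0.13).

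**Figure D4:**
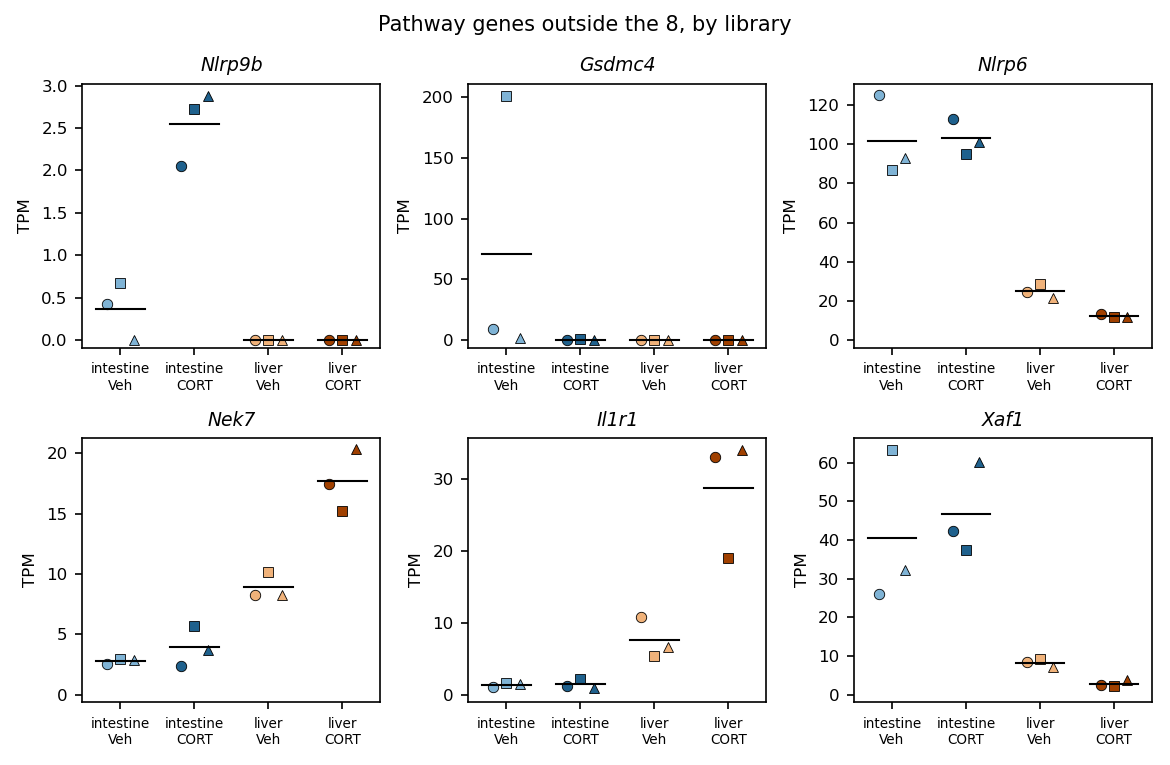
TPM of 6 pathway genes in every library on linear axes that start near 0, with replicates 1, 2 and 3 as circles, squares and triangles and group means as lines (n = 3). Nlrp6 and Xaf1 are lower and Nek7 and Il1r1 higher with CORT in the liver, Nlrp9b is near 0 except with CORT in the intestine, and the mean of Gsdmc4 in the Veh intestine rests on replicate 2 at 200.89 TPM.

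The genes most like each of the 8 were found by Pearson's r over the 12 libraries, after the mean of each tissue was taken from log2(TPM + 1), among 9566 genes with at least 1 TPM on average in every group. These are descriptions over libraries that share treatment and tissue. Gsdmd was closest to Ubxn1 (r = 0.951) and Neil1 (0.944), Casp6 to Acp6 (0.956) and Commd10 (0.948), and Casp9 to Nsmce2 (0.954) and Rab3d (0.923). Casp8 was closest to Plin2 (0.904), which coats lipid droplets, and Def8 (0.903). Xiap was closest to 1810013L24Rik (0.924) and Zkscan1 (0.918), and Il18 to Hscb (0.821) and Lpp (0.808), the lowest values of the 6. Casp1 and Casp4 were left out for their low level in liver.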

How the data were processed

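Total RNA of intestine and liver was extracted with TRIzol and sequenced as paired-end TruSeq libraries. The authors used SeqPrep and Sickle for trimming, HISAT2 for alignment, StringTie for assembly and RSEM for quantification. The submitters' processing notes name GRCm39, and tool versions are not given in the sources used here. They deposited TPM for each gene in each library, with no pooling. Because TPM is scaled to the library, depth and counting error are unknown.

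Groups came from the sample labels. From TPM, log2(TPM + 1) was fitted in R 4.3.3 with limma 3.58.1 (lmFit, and eBayes with a trend), each tissue alone, both Veh groups together, and all 12 libraries with a treatment by tissue term. A gene entered a fit when it averaged 1 TPM or more in one of the groups compared. A fold change on this scale understates the change of low genes. All adjusted p-values are limma's. The treatment by tissue call used the adjusted p alone. The fits were tested on simulated data. The study called differential expression with DESeq2 from read counts, which TPM does not allow.

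The 8 genes, the lists and the tests were chosen with earlier results of these data known. Named from a list were genes called in a tissue and up to 3 others of high level, besides a few given for their low level in liver. Not every gene that the rule selects is reported here. Alternatives were a pseudocount of 0.1, no filter, median-ratio scaling, a replicate block, leaving out each library, eBayes without a trend, removal of acinar genes and unadjusted p. A block by treatment and number in the treatment by tissue fit was added after seeing the data. Promoters are from RefSeq on GRCm38.p6.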

Additional observations from a re-analysis of the deposited data

Results flagged for a closer look

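Among the pathway genes, 3 were called in limma's treatment by tissue term. Nlrp6 had a difference of liver less intestine of -0.99 ± 0.22 (SE, adjusted p = 0.031), Nlrp9b had one of -1.40 ± 0.28 (adjusted p = 0.021) and Il1r1 one of 1.76 ± 0.40 (adjusted p = 0.039). Nlrp6 lost its call without any one of 8 of the 12 libraries, with differences between -1.04 and -0.89. These were intestine Veh replicates 2 and 3, intestine CORT replicates 1 and 3, liver Veh replicate 1 and all liver CORT replicates. Il1r1 also lost its call without 8 libraries (1.57 to 1.72): the same 4 of the intestine, liver Veh replicates 2 and 3 and liver CORT replicates 1 and 3. Nlrp9b lost its call without liver Veh replicate 3 or liver CORT replicate 1 (both -1.40), and it was at most 0.01 TPM in liver and passed the filter through the CORT intestine alone. Its term therefore restates the intestine difference of 1.40 and shows nothing about a change in liver. Nlrp6 also lost its call with no filter, Nlrp9b with a pseudocount of 0.1 (adjusted p = 0.13), and Il1r1 with that pseudocount, no filter, median-ratio scaling or a replicate block (adjusted p from 0.058 to 0.085). With the block by treatment and number, added after seeing the data, none of the 3 was called. None of the 8 genes met this test.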

How the results depend on the processing

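The 8 genes' calls with CORT stayed at 0 under the alternatives run in intestine, in liver and in the treatment by tissue fit, leave-outs included, with 1 exception: with unadjusted p-values 1 gene, Casp1, was called in intestine. Between the Veh tissues 7 were called under each alternative (with median-ratio scaling Xiap in place of Casp9), and between 6 and 7 when a library was left out. Counts of all genes called moved more. In intestine, 292 became 52 with no filter, 62 with the replicate block and 1395 with unadjusted p, and between 66 and 237 with a library left out. In liver, 810 became 283, 307 and 1808, and between 247 and 831. With median-ratio scaling the liver calls split into 543 higher and 468 lower, against 575 and 235, and the tissue calls into 3854 and 4272, against 2029 and 7495. In the treatment by tissue fit 534 genes became 210 with a block by treatment and number, an alternative added after seeing the data, and between 289 and 626 with a library left out. Same-number correlations of deviations, between treatments and between tissues, lay between -0.12 and 0.07. Some but not all samples were most like their own number. With 3 samples per group, these values cannot tell whether liver and intestine samples of the same number came from the same mouse.

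Among pathway genes, calls were lost with no filter by Nek7 (adjusted p = 0.052) and Il1r1 (0.065) in liver and Nlrp9b (0.090) in intestine, with the block by Nek7 (0.074), Xaf1 (0.056) and Nlrp9b (0.11), and with a pseudocount of 0.1 by Nlrp9b (0.10). Directions turned for small differences. With median-ratio scaling Xiap in liver turned to -0.027 and Casp9 between tissues to 0.045, and with acinar genes removed the treatment by tissue term of Casp9 turned to 0.025 and Nlrp6 in intestine to -0.0032. With a library left out, Xiap in liver lay between -0.056 and 0.24. The treatment by tissue term then lay between -0.030 and 0.90 for Casp4, -0.21 and 0.085 for Casp6, -0.10 and 0.28 for Casp8, -0.17 and 0.18 for Casp9, and -0.016 and 0.28 for Gsdmd. In intestine Il18bp lay between -0.28 and 0.37, Il1r1 between -0.19 and 0.18, and Nlrp6 between -0.071 and 0.19. The causes were not tested.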
